A study of Mus musculus with 4 samples.

Results

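Macrophage-lineage nuclei were examined in single-nucleus RNA sequencing (snRNA-seq) of mouse medial cortex, dissected from E16.5 embryos. A nucleus was chosen when it held at least 5 transcripts summed over *Csf1r*, *Cx3cr1*, *P2ry12*, *C1qa* and *C1qb*, at most 1 of *Gad1* and *Gad2*, at most 1 of *Flt1* and at most 2 of *Col1a1* and *Col1a2*. A transcript is one unique molecular identifier, counted once however often it was read. The rule was applied to the 29656 barcodes with 1500 to 60000 transcripts and chose 68 of them. The nuclei were thus chosen by their counts of these genes, whose values describe the choice and are not results. The rule had been set to find microglia. A set of 27 of the 68 nuclei held no *Sall1*, a marker of that cell type, as described below. *P2ry12* was held by 25 of the 27, but it is a gene of the rule and so tells nothing of their type. The study compared control embryos, which carried *Sst-Cre* and a tdTomato reporter, with Dnmt1 KO embryos of the genotype Sst-Cre/tdTomato/Dnmt1 loxP2. All embryos thus carried the Cre and the reporter, and only the Dnmt1 KO embryos carried the loxP alleles of *Dnmt1*, the gene of DNA methyltransferase 1. The Cre is driven by *Sst*, the somatostatin gene of a class of cortical interneurons, so the alleles are deleted in those cells and the nuclei described here belong to another lineage. Each genotype had 2 libraries from separate embryos, called KO1 and KO2 for Dnmt1 KO replicates 1 and 2, and Ctrl1 and Ctrl2 for the control replicates.

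Microglia are the resident macrophages of the brain parenchyma. They enter the brain early in embryonic life, depend on the receptor Csf1r and its ligands, and clear dying cells and debris. Border-associated macrophages are their relatives in the meninges and around vessels, and are known for the scavenger receptors Mrc1, Lyve1, Stab1 and Cd163 and the clotting factor subunit F13a1. Both express *Csf1r*, *Cx3cr1* and the complement genes at this age, so these genes of the rule do not separate them. *P2ry12*, the remaining gene of the rule, was found in most nuclei of both sets described below, but the rule chose them in part by it. *Sall1*, a transcription factor of microglial identity, and *Siglech*, a lectin receptor, are known as microglial markers.

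The libraries held between 209159 and 328873 barcodes and between 96455278 and 201141704 transcripts in all barcodes, and no barcode sequence of the retained nuclei was shared by libraries. Ctrl2 is labelled batch 2 with 2 sublibraries, and the other libraries batch 1 with 8 each, so that library alone made up its batch. In it the median of the other retained nuclei was 21152 transcripts, against 12283 to 12412 in the remaining libraries. *Xist*, the RNA of the inactive X chromosome, was counted 76 and 245 times over the chosen nuclei of KO1 and Ctrl1, and 1 and 0 times in KO2 and Ctrl2, so the replicate number went with sex in both genotypes. *Dnmt1* was counted 1 and 44 times over the chosen nuclei of KO1 and KO2, and 11 and 7 times in Ctrl1 and Ctrl2. As a level, this was 25.9, 121, 106 and 109 CPM in KO1, KO2, Ctrl1 and Ctrl2, where CPM is the number of transcripts of a gene per 1e6 transcripts of the sum. The groups overlapped, and *Sst* itself was at 1 transcript in KO2 and 0 in the other libraries. The gene therefore gave no check of the genotype labels in these nuclei.

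The 68 nuclei fell apart by genes that the rule had not used. The sum of *Mrc1* and *F13a1* was at most 8 transcripts in 41 nuclei and at least 26 in the remaining 27, with none between. A limit of 20 transcripts, chosen after these values were seen, parts both sets, and the values that set one against the other are a description with no test. On the sum of all 8 border-associated macrophage genes the sets overlapped, at 0 to 37 transcripts in the 41 nuclei and 34 to 489 in the 27. *F13a1* was at 0 in each of the 41 nuclei and between 22 and 274, with a median of 138, in the 27. *Plxdc2*, the gene of a transmembrane protein, was between 0 and 135, with a median of 44, in the 41, of which 40 held at least 3 transcripts. In the 27 it was at 0 in all but 3 nuclei and at most 5. The sets are called *Plxdc2* nuclei and *F13a1* nuclei here after these genes, although 1 of the 41 held no *Plxdc2* transcript. *F13a1* lies on the minus strand at chr13:37051152-37234277 of GRCm39 in GENCODE M39. Of the 41 *Plxdc2* nuclei, 29 carried the microglial marker *Sall1* and 31 carried *Siglech*. *Lyve1*, known from border-associated macrophages and not used for the split, was found in 25 of the 27 *F13a1* nuclei and 0 of the 41. *Mrc1*, part of the sum that made the split, was found in 26 of the 27 and in 16 of the 41.

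**Figure D1:**
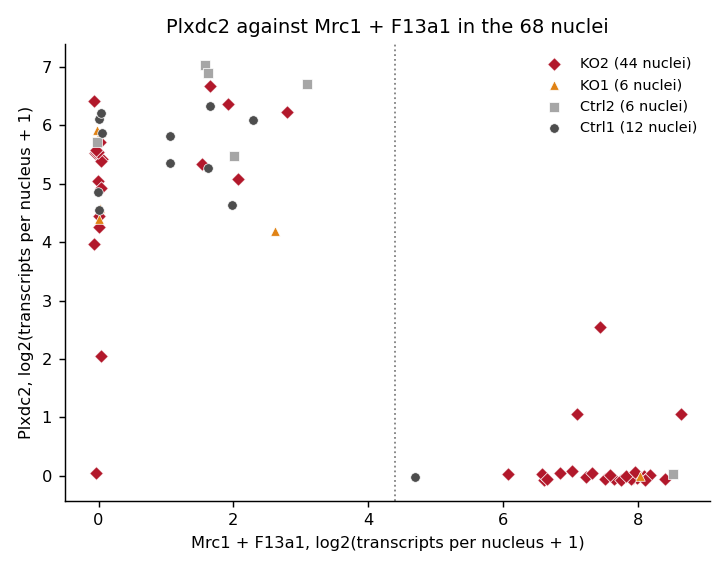
Each point is 1 of the 68 nuclei, with the sum of *Mrc1* and *F13a1* on the x axis and *Plxdc2* on the y axis, both as log2 of transcripts per nucleus plus 1 and moved slightly at random so that points can be told apart. The 41 nuclei left of the dotted line at 20 transcripts had a median of 44 *Plxdc2* transcripts, the 27 on the right 0 to 5, and 24 of the 27 came from KO2.

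The *Plxdc2* median was 23 transcripts in the 5 *Plxdc2* nuclei of KO1 (18 to 62), 40.5 in the 20 of KO2 (0 to 96), 55 in the 11 of Ctrl1 (23 to 79) and 99 in the 5 of Ctrl2 (44 to 135), the library whose nuclei were deepest. *Sall1* was counted 62 times in 29 of the 41 *Plxdc2* nuclei and was at 0 in all 27 *F13a1* nuclei. By library it was found in 4 of 5, 16 of 20, 8 of 11 and 1 of 5 *Plxdc2* nuclei of KO1, KO2, Ctrl1 and Ctrl2. *Siglech* had 195 transcripts in 31 of 41 nuclei and 3 in 2 of 27. *Tgfbr1*, a receptor of the TGF-beta signal on which microglial identity is known to depend, had 614 transcripts in the *Plxdc2* and 34 in the *F13a1* nuclei. These genes marked the same side as *Plxdc2*, which had 2026 against 7 transcripts. *Blnk*, an adaptor of immune receptor signalling, had 118 against 0, and *Csf1*, a ligand of Csf1r, had 74 in 11 nuclei against 0. The *Plxdc2* nuclei held 361641 transcripts in all and the *F13a1* nuclei 207655, so equal totals stand for a higher level in the *F13a1* nuclei.

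On the *F13a1* side, *Mrc1*, the mannose receptor, was at least 21 in 26 of 27 nuclei, with a median of 74 and a highest value of 148. *Lyve1*, a hyaluronan receptor, had 152 transcripts in 25 of 27 nuclei and none in the *Plxdc2* nuclei. *Stab1*, a scavenger receptor, was found in both sets, with 789 transcripts in 27 of 27 *F13a1* and 214 in 29 of 41 *Plxdc2* nuclei. *Stab1* was thus a difference of degree, while *Lyve1* was one of presence in these nuclei. Among further uptake genes, *Dab2*, an endocytic adaptor, had 1104 against 60 transcripts, *Colec12*, a scavenger receptor of the collectin family, 539 against 23, and *Msr1*, a scavenger receptor, 75 against 1. *Cd163*, the haemoglobin scavenger receptor, had 28 against 0, *Pf4*, a chemokine, 26 against 0, and *Cd36*, a lipid scavenger receptor, 25 against 0. *Ms4a7* had 81 transcripts in 22 of 27 *F13a1* nuclei and 11 in 3 of 41 *Plxdc2* nuclei.

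Since 24 of the 27 *F13a1* nuclei came from KO2, the sets were also compared within that library, which held 20 *Plxdc2* nuclei as well. As a level over its summed nuclei, *Plxdc2* was 4639 CPM in the *Plxdc2* nuclei and 38.5 CPM in the *F13a1* nuclei, and *Sall1* was 182 and 0 CPM. *F13a1* was 0 and 16610 CPM, *Mrc1* 88.5 and 9698 CPM, and *Lyve1* 0 and 758 CPM. *Mrc1* and *F13a1* made the split and had to differ, while *Sall1* and *Lyve1* were not used for it. *Plxdc2* was named after its values in these sets were seen. Since KO2 held most of the chosen nuclei, the difference of *Plxdc2* within it is no separate check. The single *F13a1* nucleus of KO1 held 245 *F13a1* and 29 *Mrc1* transcripts, and that of Ctrl2 held 261 and 103. That of Ctrl1 held 26 *F13a1*, 8 *Stab1* and 16 *Tgfbr1* transcripts, but no *Mrc1*, *Lyve1*, *Dab2*, *Colec12*, *Sall1* or *Plxdc2*, so its place in the set rests on *F13a1*.

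Several macrophage genes were found in both sets. For the genes of the rule this follows from the choice of the nuclei and is no result. *Csf1r*, the growth factor receptor, was found in 40 of 41 *Plxdc2* and 27 of 27 *F13a1* nuclei, *P2ry12*, a purine receptor, in 38 of 41 and 25 of 27, and *Cx3cr1*, the fractalkine receptor, in 39 of 41 and 20 of 27. Of the 25 *F13a1* nuclei with *P2ry12*, 24 came from KO2, and the single *F13a1* nuclei of KO1 and Ctrl2 held none. *Runx1*, a transcription factor of blood cell formation, had 517 and 365 transcripts, and *Zeb2*, a transcription factor that many cortical cells express as well, had 1172 and 863. *Fli1*, another factor of blood and vessel cells, had 503 and 258. *Mertk*, the receptor for engulfing dying cells, was found in 40 of 41 and 24 of 27 nuclei. *Cd86*, a costimulatory receptor of antigen-presenting cells, was found in 36 of 41 and 24 of 27. The sets had median depths of 7767 (*Plxdc2*) and 6350 (*F13a1*) transcripts per nucleus.

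By library, the rule chose 6 of 5640 nuclei in KO1, 44 of 12064 in KO2, 12 of 7047 in Ctrl1 and 6 of 4905 in Ctrl2. These are shares of 0.106% (exact 95% binomial interval 0.0391 to 0.231), 0.365% (0.265 to 0.489), 0.170% (0.0880 to 0.297) and 0.122% (0.0449 to 0.266). The intervals, here and below, cover counting error only. KO2 had the highest share and KO1 the lowest, with both control libraries between them. The mean was 0.236% ± 0.183 over KO1 and KO2 and 0.146% ± 0.034 over Ctrl1 and Ctrl2 (SD, n = 2 each), and a two-sided exact permutation test of the difference of 0.0892 percentage points gave p = 1.00, where 2 against 2 libraries cannot give less than 1/3. Without KO2, which held 64.7% of the chosen nuclei, the difference was -0.0399 percentage points.

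*Plxdc2* nuclei made up 8.87 (95% interval 2.88 to 20.7) and 16.6 (10.1 to 25.6) of every 10000 retained nuclei in KO1 and KO2, and 15.6 (7.79 to 27.9) and 10.2 (3.31 to 23.8) in Ctrl1 and Ctrl2. All 4 intervals overlapped. *F13a1* nuclei numbered 1, 24, 1 and 1 in the same order, or 1.77 (0.0449 to 9.87), 19.9 (12.8 to 29.6), 1.42 (0.0359 to 7.90) and 2.04 (0.0516 to 11.4) per 10000. KO2 stood apart from the other Dnmt1 KO library as much as from the controls. The same library had more nuclei with markers of fibroblasts, as found in meninges. The fibroblast list held *Dcn*, *Lum*, *Col3a1*, *Ranbp3l* and *Slc6a13*, and *Col1a1* and *Col1a2* of the rule were added to count nuclei. At least 5 transcripts of all these genes were found in 292 other nuclei of KO2, or 2.42%. The counts were 6, 12 and 12 nuclei (0.106%, 0.170% and 0.245%) in KO1, Ctrl1 and Ctrl2. The summed level of the list, without *Col1a1* and *Col1a2*, was 66.2 CPM in the other nuclei of KO2. It was 2.36 to 3.64 CPM in those of the remaining libraries. In the chosen nuclei 4 of the 5 genes of the list were at 0 and the fifth had 2 transcripts. The part of this in the number of *F13a1* nuclei was not tested. The *F13a1* nuclei of KO2 were spread over all 4 wells of that sample in the first barcoding round.

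**Figure D2:**
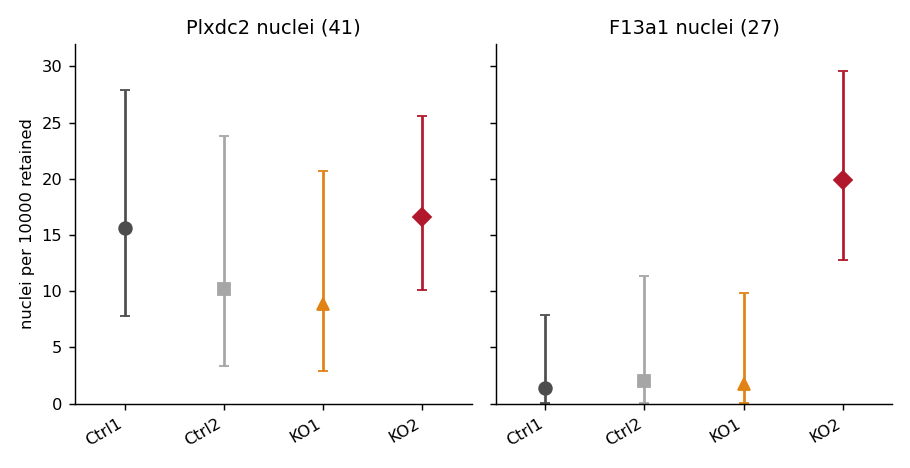
*Plxdc2* nuclei (left) and *F13a1* nuclei (right) per 10000 retained nuclei in each library, with exact 95% binomial intervals as bars. The intervals of the *Plxdc2* nuclei overlap in all 4 libraries, while KO2 stands at 19.9 *F13a1* nuclei per 10000 and the other libraries at 1.42 to 2.04.

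Few nuclei lay near the limit of the rule. Within its upper limits, 12 nuclei held 3 and 4 held 4 transcripts of the 5 genes, 2 held 5 and 1 held 6, and 60 of the 68 chosen nuclei held 8 or more. The upper limits on neuronal, endothelial and fibroblast genes removed 4 nuclei, 3 of them from KO2. At least 1 transcript of the 5 genes was found in 5.80% to 9.21% of the other nuclei, whose median depth was higher (12283 to 21152 transcripts) than that of the chosen nuclei (6642 to 11538). *F13a1* was seen in 2.82% to 5.90% of the other nuclei. Among the 68 nuclei, at least 10 transcripts of the excitatory neuron list were found in 4, of the radial glia list in 2 and of the endothelial list in 1. The interneuron list was found more often, with at least 5 transcripts in 22 of 41 *Plxdc2* and 21 of 27 *F13a1* nuclei. The transcription factor gene *Maf* alone reached 5 transcripts in 19 and 21 of them.

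Against all other nuclei of the same library, the macrophage programme stood out throughout. This contrast chose the nuclei, so it is given without a test. Of the 26 genes of the microglial identity list, all were detected, and 19 of the 20 with at least 20 transcripts were at a higher CPM in the chosen nuclei of all 4 libraries. The exception, *Fcer1g*, an adaptor of antibody receptors, was at 0 in the chosen nuclei of Ctrl2. For comparison, 45.8% of the 5104 genes with at least 20 transcripts were higher in all 4. The list summed to 13242 and 7745 CPM in the chosen nuclei of KO1 and KO2 and to 11248 and 10356 CPM in Ctrl1 and Ctrl2, and to 48.0 to 52.7 CPM in the other nuclei. KO2, with the most *F13a1* nuclei, had the lowest value. *Tmem119*, a marker known to rise late in microglial maturation, had 6 transcripts in 3 nuclei, all of KO2. Blood cell lists were nearly empty, with 8 of 10 genes of monocytes and other white blood cells and 6 of 7 erythroid genes at 0. All 5 oligodendrocyte precursor genes were at 0. *Flt1* was also at 0, but the rule limits it, as it limits *Gad1* and *Gad2* of interneurons. Of the 8 genes of the interneuron list, *Dlx1*, *Dlx2*, *Dlx5* and *Lhx6* were at 0. The list still summed to 214 transcripts in the *Plxdc2* and 248 in the *F13a1* nuclei, where the transcription factor gene *Maf* had 194 and 238.

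**Figure D3:**
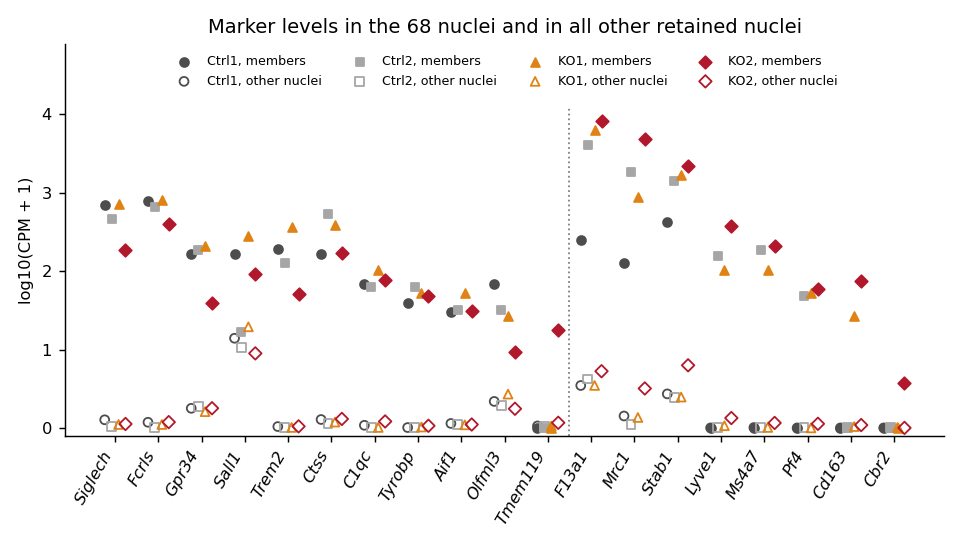
Level of each marker as log10 of CPM plus 1 in the summed chosen nuclei (filled) and the summed other nuclei (open) of each library. Microglial markers stand left of the dotted line and border-associated macrophage markers right of it, and *F13a1*, *Mrc1* and *Lyve1* are lowest in Ctrl1, where 11 of 12 nuclei were *Plxdc2* nuclei.

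The 25 genes with the highest ratio to the other nuclei were ranked by their lowest value over the 4 libraries, with 1 transcript added to each sum. Since the other nuclei held far more transcripts, a gene at 0 in both sums would have a log2 ratio of 10.93, 8.89, 9.92 and 10.77 in KO1, KO2, Ctrl1 and Ctrl2, so the size of such a ratio shows no enrichment by itself, and levels are given instead. With the CPM of 1 transcript added to both levels instead, a ranking chosen after seeing the data, 5 of the 25 were shared (*Apbb1ip*, *Fyb*, *Runx1*, *Ly86* and *Cd86*), and the first 5 were *Lrmda*, *Inpp5d*, a lipid phosphatase of immune signalling, *Apbb1ip*, *Dock2*, a regulator of immune cell migration, and *Lyn*, a kinase of immune receptors. Of the 25, 24 were at a higher CPM in the chosen nuclei of every library, the exception being *Clec7a*, which had no transcript in KO1. *Cd86* stood at 905 and 546 CPM in the chosen nuclei of KO1 and KO2 and at 464 and 1244 CPM in Ctrl1 and Ctrl2, against 0.0976 to 0.226 CPM in the other nuclei. *Ly86*, a partner of a Toll-like receptor homologue, was at 886 to 1546 CPM against 0.173 to 0.458 CPM. *Fyb*, an adaptor of immune cell adhesion, was at 886 to 1769 CPM against 0.257 to 1.08 CPM. The list also held *Itgam*, the integrin known as CD11b, *Fcrls* and *Siglech*, *Tlr7*, a sensor of RNA, *Il10ra*, a receptor of interleukin 10, *Casp1*, the inflammasome protease, and the transcription factor genes *Spi1* and *Runx1*. The remaining members were *Gm46224*, *Gm2629*, *Ms4a6b*, *Ms4a6d*, *Tifab*, *Clec7a*, *Rasal3*, *Sash3*, *Pld4*, *BC035044*, *Apbb1ip*, *Bin2*, *Wdfy4* and *Nckap1l*. *Spi1* encodes PU.1, the factor that macrophages need to form, and had 6, 46, 14 and 15 transcripts in KO1, KO2, Ctrl1 and Ctrl2. *Runx1* was at 1430 to 1594 CPM in the chosen and 0.444 to 1.34 CPM in the other nuclei. Among the 10 genes with the lowest ratios, *Erbb4*, a neuregulin receptor of interneurons, was at 0 and 44.1 CPM in KO1 and KO2 and 58.0 and 93.3 CPM in Ctrl1 and Ctrl2, against 1007 to 2181 CPM in the other nuclei, and *Kcnq5*, *Nrxn3*, *Tenm3*, *Sox2ot*, *Rbms3*, *Gm26871*, *Ptprz1*, *Tmem108* and *Pcdh7* made up the rest of the 10.

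The promoters of these 25 genes were read because PU.1 is known to bind DNA at macrophage genes, alone or with the interferon regulatory factor IRF8. RefSeq sequences (GRCm38.p6) of 250 bases before to 50 after the start matched 17 of the 25, all but *Cd86*, *Gm2629*, *Spi1*, *Ms4a6d*, *Bin2*, *Il10ra*, *Tlr7* and *Nckap1l*. The PU.1 motif GAGGAAGT, on either strand, was found in 3 of the 17 (17.6%) and in 1052 of all 32851 promoters of the table (3.20%). The composite motif of PU.1 and IRF8, GGAANNGAA, was found in 4 of the 17 (23.5%) and in 2708 of all promoters (8.24%). The promoters with the PU.1 motif follow, 5′ to 3′ on the strand of the gene, with the motifs in capitals.
Pld4 (chr12:112760405-112760704, plus strand): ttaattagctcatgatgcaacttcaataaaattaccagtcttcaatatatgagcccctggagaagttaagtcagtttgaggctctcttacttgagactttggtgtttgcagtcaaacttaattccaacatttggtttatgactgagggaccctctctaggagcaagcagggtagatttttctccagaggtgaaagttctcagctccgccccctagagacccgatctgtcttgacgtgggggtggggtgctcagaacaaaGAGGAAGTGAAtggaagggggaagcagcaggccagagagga
Apbb1ip (chr2:22774077-22774376, plus strand): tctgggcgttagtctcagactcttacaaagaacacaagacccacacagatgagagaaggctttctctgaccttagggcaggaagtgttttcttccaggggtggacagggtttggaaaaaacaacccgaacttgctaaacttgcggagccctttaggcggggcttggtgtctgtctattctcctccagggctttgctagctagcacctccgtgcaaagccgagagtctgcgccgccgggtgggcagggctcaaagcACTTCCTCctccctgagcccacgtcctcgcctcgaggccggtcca
BC035044 (chr6:128891075-128891374, minus strand): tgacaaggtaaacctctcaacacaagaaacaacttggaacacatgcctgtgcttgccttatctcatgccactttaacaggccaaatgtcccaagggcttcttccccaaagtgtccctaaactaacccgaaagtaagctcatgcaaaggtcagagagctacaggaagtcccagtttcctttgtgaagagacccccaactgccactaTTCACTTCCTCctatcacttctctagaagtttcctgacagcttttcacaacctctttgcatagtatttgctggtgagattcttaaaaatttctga
*Pld4* encodes a nuclease of endosomes and was found in both sets, with 73 transcripts in the *Plxdc2* and 36 in the *F13a1* nuclei. In its promoter and in that of *BC035044* the capitals hold both motifs, which overlap. *Apbb1ip* encodes an adaptor of integrin activation and had 611 transcripts in the *Plxdc2* and 49 in the *F13a1* nuclei. The matches describe letters in these windows, and binding was not measured.

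Among genes of uptake and clearance, 13 of the 15 of the phagocytosis and complement list with at least 20 transcripts were higher in the chosen nuclei of all 4 libraries. The other two, *Cd36* and *Fcgr2b*, an inhibitory antibody receptor, were at 0 in the chosen nuclei of Ctrl1 and higher in those of the remaining 3 libraries, and *Marco* was at 0 in all. *Mertk* had 52, 337, 151 and 139 transcripts in KO1, KO2, Ctrl1 and Ctrl2. *Trem2*, a lipid receptor, had 14, 18, 20 and 8 transcripts and belonged mostly to the *Plxdc2* nuclei (53 of 60). *C1qc*, a complement subunit outside the rule, had 21 transcripts in the *Plxdc2* and 22 in the *F13a1* nuclei, or 58.1 and 106 CPM. All 14 lysosomal genes were higher in all 4 libraries, though *Ctsa* in Ctrl1 rested on 1 transcript (9.66 against 9.41 CPM). Over all 5104 genes with at least 20 transcripts the share higher in all 4 was 45.8%, and this contrast chose the nuclei.

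Of the receptors for cytokines and other signals, 14 of 14 genes with at least 20 transcripts were higher in every library, where 45.8% of all such genes were. *Tgfbr2* was at 672 and 576 CPM in KO1 and KO2 and at 667 and 653 CPM in Ctrl1 and Ctrl2, so its level hardly varied between libraries, while it was 760 CPM in the *Plxdc2* and 342 CPM in the *F13a1* nuclei. *Tgfbr1* was at 1914 and 774 CPM in KO1 and KO2 and at 1691 and 1835 CPM in Ctrl1 and Ctrl2, with the low value in the library that held most *F13a1* nuclei. *P2ry6*, a nucleotide receptor of phagocytosis, was at 207, 240, 222 and 700 CPM in the same order, and in Ctrl2, the high value, 27 of the 45 transcripts lay in 1 nucleus. *Kcnk13*, a potassium channel of microglia, had 138 transcripts in the *Plxdc2* and 20 in the *F13a1* nuclei.

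The list of 19 chemokine and cytokine genes summed to 129, 254, 222 and 233 CPM in the chosen nuclei of KO1, KO2, Ctrl1 and Ctrl2 and to 28.5 to 36.9 CPM in the other nuclei. Of these 19 genes only *Tgfb1* reached 20 transcripts, with 2, 27, 9 and 9 in KO1, KO2, Ctrl1 and Ctrl2. *Ccl3*, a chemokine, had 0, 12, 3 and 1 transcripts, all in *Plxdc2* nuclei. *Il1b* had 2 transcripts and *Tnf* 1 over all 68 nuclei, and *Il6* and *Cxcl10* were at 0. With 38666 to 362835 transcripts summed per library, a gene at 0 may still be expressed below what these numbers could show. In the interferon response list, *Ifi204* and *Ifi207* had 31 and 39 transcripts, while *Ifit1*, *Isg15* and *Ifi27l2a* were at 0. Of genes known from microglia at developing axon tracts, *Apoe*, a lipid carrier, had 8, 57, 14 and 13 transcripts by library, and *Gpnmb* was at 0.

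Cell-cycle transcripts were found in both sets. The sum over 24 cell-cycle genes ranged from 0 to 162 transcripts per nucleus, and all 24 genes were detected. At least 20 transcripts were held by 15 of 41 *Plxdc2* nuclei (2, 9, 3 and 1 in KO1, KO2, Ctrl1 and Ctrl2) and by 6 of 27 *F13a1* nuclei (5 in KO2 and 1 in Ctrl2). In the other nuclei the share at this limit was 11.5% to 14.9%. *Mki67*, a protein of dividing cells, had 19, 105, 49 and 5 transcripts in the chosen nuclei of the 4 libraries. The list summed to 2664, 3216, 2493 and 2612 CPM in the chosen and 1324, 1016, 1042 and 825 CPM in the other nuclei.

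A limit of 3 transcripts served for the comparison of genotypes. It was reached by 5 of 6 (83.3%) and 28 of 44 (63.6%) chosen nuclei in KO1 and KO2, and by 5 of 12 (41.7%) and 4 of 6 (66.7%) in Ctrl1 and Ctrl2. The groups overlapped. The means were 73.5% ± 13.9 and 54.2% ± 17.7 (SD, n = 2 each), and the two-sided exact permutation test of the difference of 19.3 percentage points gave p = 0.667. In *Plxdc2* nuclei alone the limit was reached by 4 of 5 and 15 of 20 in KO1 and KO2 against 5 of 11 and 3 of 5 in Ctrl1 and Ctrl2, a mean difference of 24.8 percentage points, and the exact permutation test gave the smallest p it can, 1/3. In the other nuclei, 54.3% to 65.3% reached the limit at their greater depth. With each chosen nucleus thinned to 1500 transcripts and a limit of 1, the difference was 14.02 percentage points (exact permutation p = 1.00).

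**Figure D4:**
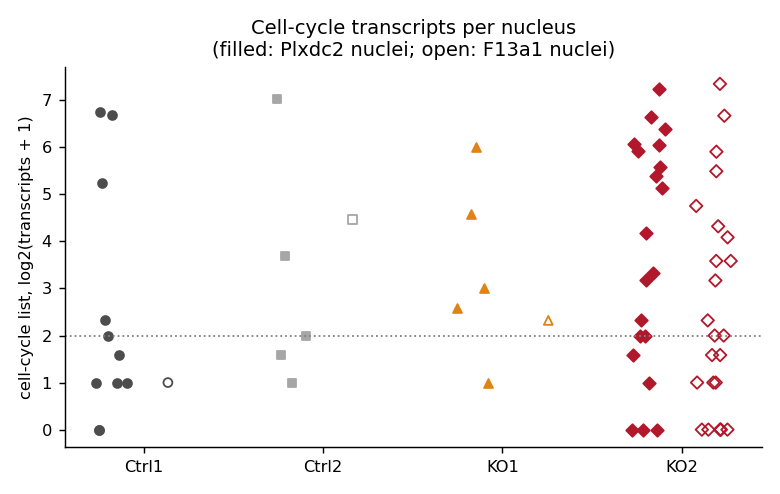
Transcripts of the 24 cell-cycle genes per nucleus, as log2 of the sum plus 1, by library, with *Plxdc2* nuclei filled and *F13a1* nuclei open. The dotted line marks 3 transcripts, and nuclei with 20 or more are found in every library, up to 162 in KO2.

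At least 3 transcripts of the 8 border-associated macrophage genes were held by 33.3% and 79.5% of the chosen nuclei in KO1 and KO2 and by 75.0% and 83.3% in Ctrl1 and Ctrl2. The difference of -22.7 percentage points gave p = 0.667 in the two-sided exact permutation test. At this limit *Plxdc2* nuclei counted too, since *Stab1* was found in 29 of 41 of them. With the limit of 20 transcripts of *Mrc1* and *F13a1* the shares were 16.7%, 54.5%, 8.33% and 16.7%, and the difference turned to 23.1 percentage points (exact permutation p = 0.667).

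The question of the genotype comparison was whether cells outside the *Sst* lineage differed between Dnmt1 KO and control embryos. Counts were summed per library over the chosen nuclei, and edgeR's quasi-likelihood test with Benjamini-Hochberg adjustment called 0 of 2221 genes (0%) at an adjusted p under 0.05. At an unadjusted p under 0.05 there were 47 genes, and DESeq2 called 0, with 11 unadjusted. The smallest adjusted p was 0.999. In *Plxdc2* nuclei alone edgeR called 0 of 1979 genes, with 39 unadjusted, and DESeq2 0, with 5. In the other nuclei edgeR called 0 of 21467 genes (0%), with 1626 unadjusted, and DESeq2 called 205 (0.955%). The genotype difference of the chosen nuclei was set against that of the other nuclei by an interaction term, which edgeR called for 0 of 2221 genes (0%), with 52 unadjusted, and DESeq2 for 4 (0.18%), *Ptprk*, *Prkg1*, *Rin2* and *Tec*, named after their values were seen.

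The 10 genes with the smallest unadjusted p did not pass the test. Over all 2221 genes, both Dnmt1 KO values lay above both control values in 13.4% and below them in 13.7%, and the choice by p favours such genes, so that nothing is read from the groups of the 10 not overlapping. *Ptprk*, a receptor phosphatase, was at 388 and 849 CPM in KO1 and KO2 and 58.0 and 124 CPM in Ctrl1 and Ctrl2, a log2 difference of 2.88 (SE 0.63, edgeR adjusted p = 0.999), which fell to 0.29 when nuclei with 3 or 4 transcripts of the rule's genes were added. *Mctp1*, a calcium-binding membrane protein, was at 879 and 2921 CPM against 329 and 389 CPM. *Rbpj*, the transcription factor of Notch signalling, was at 3854 and 4054 CPM against 435 and 1539 CPM. All 3 had more transcripts in the *F13a1* nuclei. *Ptprk* had 300 transcripts in 24 of 27 *F13a1* nuclei and 37 in 6 of 41 *Plxdc2* nuclei, *Mctp1* 1034 and 119, and *Rbpj* 1601 and 163. In *Plxdc2* nuclei alone the log2 difference was 0.63 for *Mctp1* and -0.01 for *Rbpj*, and *Ptprk* was too low there to be tested. The share of *F13a1* nuclei and the genotype cannot be told apart for these genes in the sum over all 68 nuclei.

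The log2 differences of *Rad51b* and *Atad2* were at least as large in *Plxdc2* nuclei, again without passing the test. *Rad51b*, of DNA repair, was at 698 and 774 CPM in KO1 and KO2 and 300 and 155 CPM in Ctrl1 and Ctrl2, and its log2 difference was 1.64 in all chosen nuclei and 2.00 in *Plxdc2* nuclei. Without Ctrl1 it passed the edgeR test in *Plxdc2* nuclei (log2 difference 2.80, adjusted p = 0.00435), a fit in which *Xist* passed too and Ctrl2, of another batch, is the lone control library and is assumed to vary like the Dnmt1 KO pair. It did not pass with any of the other 3 libraries left out. *Atad2*, a chromatin factor of S phase from the cell-cycle list, was at 207 and 240 CPM against 77.3 and 31.1 CPM, with 1.95 and 2.27. In all chosen nuclei it passed the filter on low counts through the Dnmt1 KO libraries alone, so its rank by p is no support for a difference. The 10 tested genes of the cell-cycle list had 6 positive and 4 negative values in both sums, with medians of 0.18 in all chosen and 0.21 in *Plxdc2* nuclei. *Dst*, a cytoskeletal linker, was at 517 and 471 CPM against 1218 and 1120 CPM (log2 difference -1.27). *Ripor2* and *Man1a*, a mannosidase of the Golgi, had log2 differences of 1.52 and 1.47, and *Apba1*, an adaptor known from synapses, one of -1.20. In *Plxdc2* nuclei alone the log2 differences were smaller in size, at -0.94 for *Dst*, 1.05 for *Ripor2*, 1.19 for *Man1a* and -1.15 for *Apba1*.

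**Figure D5:**
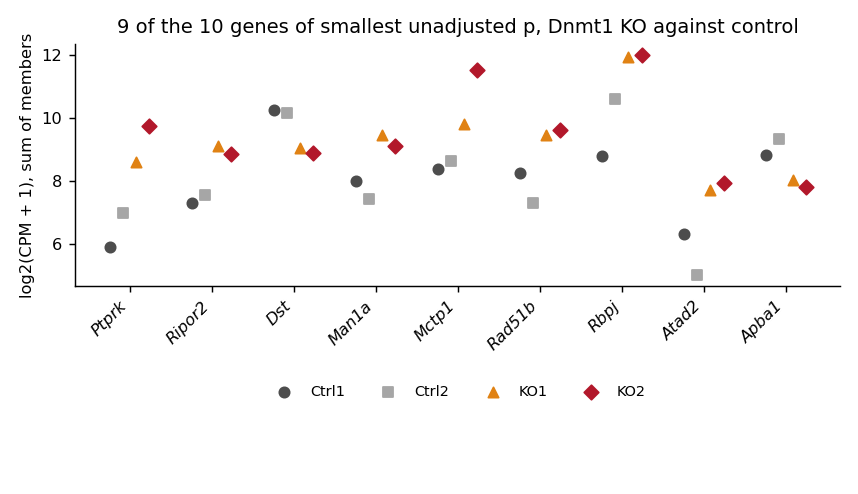
Level of 9 of the 10 genes with the smallest unadjusted p as log2 of CPM plus 1 in the summed chosen nuclei of each library. The genes were chosen by their p, which favours groups that do not overlap (13.4% of all genes tested had both Dnmt1 KO values above both control values and 13.7% below), and no gene passed the adjusted test.

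By list, 16 of the 26 identity genes could be tested, with 4 positive and 12 negative log2 differences and a median of -0.25, against -0.01 over all 2221 genes. In *Plxdc2* nuclei alone 17 could be tested, with 8 positive, 9 negative and a median of -0.01. All 5 tested border-associated macrophage genes had positive values with a median of 1.68, in the library sums to which KO2 brought 24 *F13a1* nuclei. Over *Plxdc2* nuclei alone, 2 genes of that list could be tested, 1 positive and 1 negative, with a median of -0.20. Of the phagocytosis list 6 of 6 and of the lysosomal list 6 of 7 tested genes had negative values, both with a median of -0.29, where 1130 of all 2221 genes were negative. In *Plxdc2* nuclei 5 of 6 and 5 of 7 were negative, with medians of -0.21 and -0.17. No gene of these lists passed the main edgeR test. Without the filter on low counts *F13a1* and *Mrc1* of the border-associated list passed it (edgeR adjusted p = 0.0152 and 0.0274). Among methylation genes, *Dnmt3a*, a methyltransferase of new sites, was at 259 and 295 CPM in KO1 and KO2 and 319 and 373 CPM in Ctrl1 and Ctrl2, and *Tet3*, an enzyme that oxidises the methyl mark, at 750 and 405 CPM against 474 and 731 CPM. The 4 methylation genes that could be tested had a median log2 difference of -0.14 and none passed.

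Signals that other cells send to macrophages were read from the other nuclei, where 11 of 12 genes could be tested and 0 passed the edgeR test, the smallest unadjusted p being 0.0781 for *Pros1*. *Csf1* was at 4.81 and 6.10 CPM in KO1 and KO2 and 5.66 and 5.01 CPM in Ctrl1 and Ctrl2. *Il34*, the other ligand of Csf1r, was at 0.770 and 1.44 CPM against 0.758 and 0.701 CPM and was at 0 in the chosen nuclei. Its log2 difference was 0.60 (SE 0.38, edgeR adjusted p = 0.691). *Pros1*, a bridge between dying cells and Mertk, was at 5.68 and 7.56 CPM against 5.05 and 4.62 CPM, with a log2 difference of 0.44 (SE 0.20, edgeR adjusted p = 0.648). *Cx3cl1*, the ligand of Cx3cr1, was at 2.16 and 2.95 CPM against 3.40 and 1.44 CPM, and its values overlapped. *Cd200* and *Cd47*, signals that restrain macrophages, had log2 differences of -0.10 and 0.05.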

How the data were processed

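Nuclei of frozen medial cortex were barcoded by split-pool indexing (Parse Evercode) and sequenced. The authors processed the reads with Trailmaker (version and annotation not given in the sources used here; build mm39 per the labels) and deposited unfiltered counts of transcripts per barcode and gene, without normalization, for 56884 genes and 1127729 barcodes. The submitters' notes name R 4.4.1 and Seurat 5.0.1.9001 for later steps. Whether intronic reads and strand were used was not stated, so overlapping genes may share reads.

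Barcodes with 1500 to 60000 transcripts were kept, a range that the study states for reads. Nuclei were chosen by the rule given above. No doublet caller was run, and the upper limits of the rule removed 4 nuclei. Groups came from the sample titles, and nuclei were never treated as replicates. Raw counts were summed per library and tested with edgeR 4.0.16 (quasi-likelihood, TMM, filterByExpr, R 4.3.3), with DESeq2 1.42.0 as an alternative, at an adjusted p of 0.05. Shares were compared by two-sided exact permutation over libraries (scipy 1.17.1, Python 3.11.15). CPM of summed counts are relative to all transcripts of that sum, and ratios used 1 added transcript. The scripts were tested on simulated data. Replicate numbers coincided with sex, the labels tie them to no shared litter or day, and they were not treated as pairs.

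The genes named are those of the 25 gene lists, the 25 highest ratios to the other nuclei (at least 20 transcripts), the 10 lowest (at least 200 CPM in the other nuclei), and the 10 smallest p of the genotype test, plus genes that part the *Plxdc2* and *F13a1* nuclei, chosen after their values were seen. Some genes covered by these rules are not reported here. The members and lists were chosen with earlier results of these data known. Alternatives covered the limits of the rule, scaling, filters, batch, the replicate block, depth by thinning to 1500 transcripts, and leaving out each library.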

Additional observations from a re-analysis of the deposited data

Results flagged for a closer look

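Both values were found in nuclei that the rule did not choose, and were above those of the control libraries. In KO2, 6 retained nuclei outside the rule held at least 20 transcripts of *Mrc1* and *F13a1*, where each of the other libraries had 0. Of these, 3 were within the upper limits but held only 2 to 4 transcripts of the rule's genes, 1 held 6 collagen transcripts, and 2 held 29 and 46 *Gad1* and *Gad2* transcripts. In the same library, 292 of the other nuclei held at least 5 fibroblast transcripts, against 6 in KO1 and 12 in each control library. The relation between these counts and the 24 *F13a1* nuclei of that library was not tested.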

How the results depend on the processing

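The difference in the share of chosen nuclei kept its sign under marker sums of 3 and 8, the range on mapped reads and the replicate block (exact permutation p = 1.00). It was 0.299 percentage points with nuclei thinned to 1500 transcripts and a marker sum of 1 (exact permutation p = 0.667). That setting counted 47, 156, 46 and 43 nuclei in KO1, KO2, Ctrl1 and Ctrl2, far more than the rule chose. Without nuclei with at least 3 border-gene transcripts the difference was 0.0413 (exact permutation p = 1/3, the smallest possible), with only 4, 9, 3 and 1 nuclei left in the same order. It ranged from -0.0399 to 0.218 percentage points with 1 library left out, and was -0.00180 with the *F13a1* nuclei left out. The difference in the share with at least 3 cell-cycle transcripts was 6.82 to 31.8 percentage points with 1 library left out. It stayed positive under every alternative run, among them limits of 2 and 5 transcripts but none of 20. The limit of 3 was also reached by 54.3% to 65.3% of the other nuclei, so it does not mark dividing nuclei alone. The limit of 20 was reached by 2, 9, 3 and 1 *Plxdc2* nuclei in KO1, KO2, Ctrl1 and Ctrl2. It was reached by 0, 5, 0 and 1 *F13a1* nuclei, where 6, 44, 12 and 6 nuclei were chosen in all. Shares at the limit of 20 cell-cycle transcripts were not compared between genotypes. The border-gene difference ranged from -45.8 to 0.379 with 1 library left out (0.379 without KO1) and was 5.30 at a limit of 5 transcripts and 23.1 at 20 transcripts of *Mrc1* and *F13a1*. Alternatives using *Mrc1* and *F13a1* and the crossed block were chosen after seeing the data.

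In the chosen nuclei, edgeR called 27 genes (21 higher, 6 lower in Dnmt1 KO) without the filter on low counts and 0 to 5 with 1 library left out. Each such fit leaves 1 library alone in its group, assumed to vary like the other group. The 5, without Ctrl2 (batch 1 only), were *Slit3* (log2 difference -6.22), *Agbl4* (-5.58), *Gm32647* (-6.54), *Colec12* (10.44) and *F13a1* (4.79), named after their values were seen, and 24 of the 27 *F13a1* nuclei lay in KO2. With batch as a covariate the count was 0, but that term fits Ctrl2 alone. Its genotype contrast is therefore nearly that of the fit without Ctrl2, on fewer genes (2221 against 3345 tested), and is no separate check. With scaling to totals or DESeq2 the count was 0. In *Plxdc2* nuclei alone it was 0 without either Dnmt1 KO library, 27 without Ctrl1, *Rad51b* among them, and 32 without Ctrl2, *Topbp1* among them. In the other nuclei the count was 205 by DESeq2, 69 without the filter and 0 to 267 with 1 library left out (267 without KO1, and 1, *Tafa2*, without KO2). For the difference between both populations it was 4 by DESeq2, 4 without the filter (*Gm32647*, *Tmem132c*, *Cpne4* and *Agbl4*) and 0 to 18 with 1 library left out (18 without Ctrl2, and 1, *Rbm47*, without Ctrl1). The causes were not tested.

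Same-numbered libraries did not deviate together over 2221 genes (correlation -0.31). With the replicate block the count was 0 in the chosen nuclei (35 genes at an unadjusted p under 0.05) and 0 in the other nuclei, and the crossed block gave 0. Of 139 values of the 10 named genes under alternatives, 134 kept their sign and their side of the threshold, 3 passed the threshold without the filter (*Ptprk*, *Mctp1*, *Rbpj*), and *Rbpj* turned to -0.00946 (edgeR) and -0.00985 (DESeq2) without the *F13a1* nuclei. Depth was lowest in KO1, whose 6 chosen nuclei held 38666 transcripts in all.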

Other observations

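A single nucleus held all 33 *Spp1* transcripts of the 68 nuclei. *Spp1*, or osteopontin, is known from microglia at developing axon tracts. The nucleus came from KO2 and belonged to the *Plxdc2* nuclei, with 3 *P2ry12* transcripts and 1 of *Sall1*. It also held 18 *Igf1*, 32 *Csf1*, 18 *Cd9* and 34 cell-cycle transcripts. Of genes higher in the *F13a1* nuclei it held 12 *Colec12*, the highest count in any *Plxdc2* nucleus, 9 *Stab1* and 6 *Dab2* transcripts. *Csf1* was next highest, at 22 transcripts, in a *Plxdc2* nucleus of Ctrl2 that held 11 *Igf1* transcripts and no *Spp1*. *Clec7a*, a receptor of fungal glucans, reached 18 transcripts in another *Plxdc2* nucleus of KO2, beside 7 of the 9 *Itgax* transcripts and no *Igf1* or *Csf1*. With so few nuclei these are values of single nuclei and were not compared between genotypes.

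In *Plxdc2* nuclei alone the smallest unadjusted p of the genotype test was that of *Topbp1*, a factor of DNA replication and repair, followed by *Rad51b* and *Atad2*. *Topbp1* had 5 and 53 transcripts in KO1 and KO2 and 1 and 1 in Ctrl1 and Ctrl2 (log2 difference 4.00, SE 0.89, edgeR adjusted p = 0.999). Its control counts were too low for the filter on low counts, which it passed through the Dnmt1 KO libraries alone. Its rank by p is therefore no support for a difference, and it did not pass the test. *Topbp1* passed it without Ctrl2 (log2 difference 4.33, edgeR adjusted p = 0.0371), where Ctrl1 is the lone control library and is assumed to vary like the Dnmt1 KO pair, and did not pass without Ctrl1 or without either Dnmt1 KO library.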
